A study of Mus musculus with 10 samples.

Results

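The features described here consist of a short annotated 3′ untranslated region (3′UTR) and the 2 kb that follow it on its strand, and in 1102 of 3342 they lie past the end of a gene and hold no other gene. Of the 43031 features in the tables, 3342 were made of 1 exon, were at most 2200 bases long, which leaves at most 200 bases of annotated 3′UTR, and shared no base with another feature on either strand. Nearly all of their length is thus the added 2 kb, which in 1683 of them follows an annotated end inside the gene itself. Their signal is given in TPM, a level scaled to feature length and to the total of the library, which covers the annotated part and the 2 kb together, so that the level of a transcript and RNA running past its end cannot be told apart within 1 feature. Membership depended only on length, exon number and position and on no measured value. Earlier results of these data were known when the set and the gene lists used below were chosen.

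Most mammalian mRNAs are cleaved shortly after a polyadenylation hexamer, usually AATAAA, and receive a poly(A) tail, while RNA polymerase II runs on beyond the cleavage site until a nuclease degrades the downstream RNA and the polymerase is released. When cleavage or release fails, RNA can extend far past the annotated end, which is called read-through. Replication-dependent histone mRNAs are an exception: they end a few bases past a conserved stem-loop and carry no poly(A) tail. A signal beyond a 3′ end can also come from a longer 3′UTR, from an unannotated exon or from a neighbouring gene.

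The libraries were made from total RNA of mouse embryonic stem cells (ESC) of the C57BL/6 strain, grown in serum and leukemia inhibitory factor on mitomycin C-treated fibroblasts or on gelatin. WT cells carried the wild-type gene. DIDO3ΔE16 cells were homozygous for a deletion of exon 16 of Dido1, the exon specific to its isoform DIDO3, made in mice from a floxed allele with a Sox2-driven Cre. DIDO3ΔCT+HADIDO3 cells carried a C-terminal deletion of DIDO3 and were reconstituted with HADIDO3; DIDO3ΔCT cells without HADIDO3 were not analysed here, so the allele, the construct and the line cannot be told apart in that group. Each of the 3 groups had 3 libraries. WT had 4 samples in the labels, of which replicates 2 and 3 share a single library name and entered as 1 library (WT 2-3). No source states that the replicates were separate cultures, so p-values measure the spread between these libraries only, which may be technical.

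The summed coverage of all features was 1.46 to 2.61 gigabases per library, of which 46.3 to 79.1 megabases lay in the 3342 short features. A level of 1 TPM stood for 908 to 1620 aligned bases in 1 such feature. ESC markers summed to 4680 to 5160 TPM in WT, 5630 to 6780 in DIDO3ΔE16 against 4720 to 5940 in DIDO3ΔCT+HADIDO3, with all 10 markers above 1 TPM in each group. None of these markers was called in DIDO3ΔE16. The sums of WT and DIDO3ΔE16 differed mostly through the features used for Esrrb and Nanog. These had means of 132 and 156 TPM in WT, 984 and 685 in DIDO3ΔE16 against 456 and 480 in DIDO3ΔCT+HADIDO3. The 10 markers of feeder fibroblasts, none of which was among the 3342 features, summed to 59.2 to 64.3, 123 to 130 and 55.8 to 60.7 TPM. In DIDO3ΔE16 7 of 8 tested markers were called higher than in WT, with Lum listed at 0 in both. In DIDO3ΔCT+HADIDO3 the sum was mostly Thy1 (mean 54.4 TPM), while Col1a1 and Col1a2 had means of 1.14 and 0.239 TPM against 11.7 and 18.2 in WT, and Col3a1 and Twist2 were at 0. The part of feeder RNA in the results below was not tested. The library codes in the labels of WT replicates 1 and 4 begin differently from those of WT 2-3 and all mutant libraries. No label says what the codes are; their beginnings were read here as names of 2 flow cell families, so that with the flow cell family in the fit a comparison with WT rests on WT 2-3 alone. In the targeted gene, features moved in both directions in DIDO3ΔE16. The Dido1 feature uc008ojq.2 had 17.9, 16.8 and 13.7 TPM in WT, 0.546, 0.511 and 0.307 in DIDO3ΔE16 against 12.1, 11.5 and 10.9 in DIDO3ΔCT+HADIDO3. The Dido1 feature uc008ojv.2 was also called lower in DIDO3ΔE16 (log2 fold change -2.7), from 51.6, 28.9 and 48.4 TPM to 6.16, 7.04 and 6.65, with another feature of the same coordinates, uc008oju.2, at 21.8 TPM in WT 2-3 and at most 0.0507 in the other libraries. The Dido1 feature uc008ojt.2 was called higher (4.12), from 4.90, 4.77 and 4.79 TPM to 90.6, 96.0 and 81.6, with 8.64, 7.30 and 8.44 in DIDO3ΔCT+HADIDO3.

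Set against the GENCODE annotation, the features were of 4 kinds. In 1102, called free gene ends here, the annotated end was within 50 bases of the end of the gene and no other gene reached into the 2 kb. In 337 the end was a gene end but another gene lay in the 2 kb. In 1683 the annotated end lay inside the gene itself, and 1190 of these had an exon of that gene within the 2 kb, so the added sequence was not downstream of the gene. The remaining 220 were given no gene. The annotated part was 1 or 2 bases long in 568 features, 496 of them inside their gene, and had a median of 122 bases at free gene ends.

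The sequences at the annotated ends showed both kinds of 3′ end. Except in the histone set, they are the last 30 bases of GENCODE transcripts whose end is that of the feature. All are on mouse build GRCm38 and read 5′ to 3′ on the strand of the gene. In the first set, which holds genes with large differences between groups below, capitals mark the polyadenylation hexamer AATAAA.
Slit1, chr19:41600257-41600286, minus strand: taggcgcttAATAAAtatttgttgaatgaa
Spink4, chr4:40931366-40931395, plus strand: gacatgaAATAAAagatgcagcccaagcta
S100a4, chr3:90606016-90606045, plus strand: caaattcAATAAAaggttttgaaactatta
Yjefn3, chr8:69887788-69887817, minus strand: aaccgcaccAATAAAcatctccaccacctc
Myl7, chr11:5896637-5896666, minus strand: acctcAATAAActctgtgcctgaactagaa
The hexamer AATAAA or its common variant ATTAAA stood within the last 40 bases, on the strand of the gene, at 396 of the 549 free gene ends with an exact transcript end (72.1%), at 255 of 716 ends inside a gene (35.6%) and at 46.7% of all 52177 distinct ends of protein-coding transcripts. Among free gene ends called higher in DIDO3ΔE16 it stood at 14 of 29, and among those called lower at 2 of 4. In DIDO3ΔCT+HADIDO3 it stood at 13 of 23 called higher and at 9 of 11 called lower. The absence of these letters says only that they are not in this window, as in the next set, whose ends hold neither hexamer.
AY358078, chr14:51826330-51826359, plus strand: agagattgaattgaatgttagtgtttcctt
Foxi3, chr6:70961037-70961066, plus strand: tacccccgggatggctctgatatatagaca
Zscan4b, chr7:10900740-10900769, minus strand: gtagggcttcagcctcagtatgtcatcttc

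The last set holds the stem-loops of 5 histone genes, in capitals, with the bases around them. These stretches were placed by the stem-loop and not by the end of a transcript.
Hist1h1c, chr13:23739503-23739532, plus strand: aatccaaaaGGCTCTTTTCAGAGCCaccac
Hist1h2bk, chr13:22036291-22036320, plus strand: agcaccaaaGGCTCTTTTAAGAGCCactaa
Hist1h4j, chr13:21735428-21735457, plus strand: ttccctaaaGGTCCTTTTCAGGACCaccac
Hist2h3c1, chr3:96247318-96247347, plus strand: ccccacaaaGGCTCTTTTCAGAGCCaccac
Hist3h2ba, chr11:58949340-58949369, plus strand: caacccaaaGGCTCTTTTCAGAGCCacctt
A stem-loop of this form was located in 20 of 22 replication-dependent histone features, and the annotated end of the feature lay 4 to 8 bases past it. The 2 kb of these features thus began close to the processed end of the mRNA. Within the last 100 bases of all 52177 coding ends the stem-loop occurred 24 times (0.046%). No histone feature had an exact transcript end, and its stem-loop was placed relative to the annotated end of the feature. These counts thus use unlike windows and cannot be set side by side.

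A minority of the histone features were called higher than WT in each mutant line. They hold 44 to 75 annotated bases, and 14 of the 22 are classed as inside their gene because the gene as annotated reaches further. The 22 features summed to 22.3, 24.6 and 24.7 TPM in the WT libraries, to 44.5, 52.1 and 50.7 in DIDO3ΔE16 against to 75.6, 68.3 and 71.8 in DIDO3ΔCT+HADIDO3, so no library of a mutant line overlapped with WT and the 2 mutant lines did not overlap with each other. Hist1h1c alone made up a large part of these sums. Without it they were 12.9, 14.3 and 14.3 TPM in WT, 25.9, 33.6 and 26.6 in DIDO3ΔE16 against 38.9, 35.7 and 41 in DIDO3ΔCT+HADIDO3, still with no overlap. Of 21 histone features tested against WT, 7 were called higher and 0 lower in DIDO3ΔE16, with a median log2 fold change of 0.65. A call needed a log2 fold change of at least 0.7 in size and a Benjamini-Hochberg adjusted p under 0.05 by limma over all features tested. In DIDO3ΔCT+HADIDO3, 8 of 21 were called higher and 0 lower, with a median of 0.82. In all, 17 of 21 features lay above WT in DIDO3ΔE16 and 18 of 21 in DIDO3ΔCT+HADIDO3, called or not. Over all features tested, 8.17% were called higher in DIDO3ΔE16 and 7.81% in DIDO3ΔCT+HADIDO3, with a median of -0.01 in each comparison.

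The strongest histone signal was that of Hist1h1c, a linker histone gene. Its feature had 9.42, 10.2 and 10.5 TPM in WT, 18.7, 18.5 and 24.1 in DIDO3ΔE16 against 36.7, 32.7 and 30.8 in DIDO3ΔCT+HADIDO3, so the 3 groups were apart. The log2 fold change from WT was 0.95 (SE 0.13, adjusted p = 0.00814) in DIDO3ΔE16 and 1.63 (SE 0.10, adjusted p = 0.000935) in DIDO3ΔCT+HADIDO3, and the direct comparison of the mutant lines gave -0.69, just inside the fold threshold. Hist2h3c1, which encodes a histone H3, had 2.12, 2.64 and 2.00 TPM in WT, 6.57, 8.0 and 7.63 in DIDO3ΔE16 against 7.59, 6.42 and 10.2 in DIDO3ΔCT+HADIDO3. Here the mutant lines overlapped and differed by -0.08 on the log2 scale, while each was over 1.6 above WT. Hist3h2ba, an H2B gene outside the main clusters, had 0.644, 1.03 and 0.836 TPM in WT, 0.318, 1.18 and 0.461 in DIDO3ΔE16 against 5.22, 5.53 and 6.00 in DIDO3ΔCT+HADIDO3, and the mutant lines differed by -3.06 on the log2 scale (SE 0.45, adjusted p = 0.0056). Hist2h4 could not be tested against WT because WT 1 was at 0. It had 0.402 and 0.127 TPM in the other WT libraries, 0.595 to 0.867 in DIDO3ΔE16 against 2.75 to 3.72 in DIDO3ΔCT+HADIDO3, and the mutant lines differed by -1.94 (adjusted p = 0.00173).

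The other histone calls were at low levels. Hist1h2bk went from 0.397, 0.552 and 0.419 TPM in WT to 1.77, 3.02 and 1.77 in DIDO3ΔE16 (log2 fold change 1.95, adjusted p = 0.00857) and to 0.716, 1.09 and 1.19 in DIDO3ΔCT+HADIDO3 (0.88, adjusted p = 0.0499). Hist1h2ah, Hist1h4j and Hist1h1a were also called higher in both lines, Hist1h3c in DIDO3ΔE16 only and Hist1h2bh in DIDO3ΔCT+HADIDO3 only. When each library was left out in turn, 3 of the 7 calls in DIDO3ΔE16 (Hist1h1c, Hist2h3c1 and Hist1h2bk) and 5 of the 8 in DIDO3ΔCT+HADIDO3 (Hist1h1c, Hist2h3c1, Hist3h2ba, Hist1h2ah and Hist1h2bh) were made in every fit. The DIDO3ΔE16 call of Hist1h2ah was lost whichever of the 6 libraries was left out (adjusted p = 0.0765 to 0.104) and that of Hist1h1a, Hist1h4j and Hist1h3c in 5 of 6 such fits each. In DIDO3ΔCT+HADIDO3 the call was lost in 5 of 6 fits for Hist1h2bk, in 4 for Hist1h4j and in 3 for Hist1h1a. Between the mutant lines 1 histone feature (Hist1h2bk) was called higher in DIDO3ΔE16 and 3 lower (Hist3h2ba, Hist2h4 and Hist1h2bh), of 22. Over all features 11.5% were called higher and 11.0% lower between these lines. The calls of Hist1h2bk and Hist1h2bh between the lines were lost in 6 and 5 of 6 fits. With the flow cell family in the fit, 1 of 21 was called in DIDO3ΔE16 (Hist2h3c1) and 4 of 21 in DIDO3ΔCT+HADIDO3, all higher, and the medians were 0.57 and 1.06. Hist1h1c then had an adjusted p of 0.0731 in DIDO3ΔE16 and Hist2h3c1 one of 0.0509 in DIDO3ΔCT+HADIDO3. Histone gene bodies were not measured apart from these features, and how polyadenylated RNA was selected is not given in the sources used here.

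**Figure D1:**
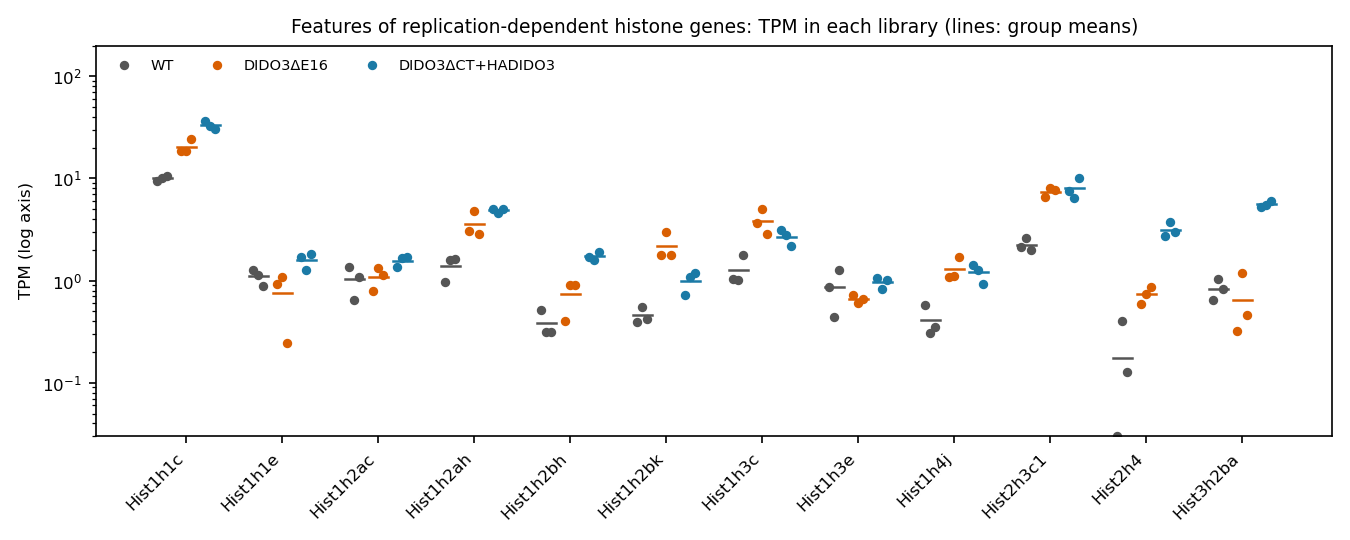
TPM on a log axis for 12 histone features whose mean reached 0.8 TPM, with 1 point per library and a line at the mean of each group of 3. Hist1h1c and Hist2h3c1 lie higher in both mutant lines than in WT, whereas Hist3h2ba lies higher in DIDO3ΔCT+HADIDO3 only, and the WT library of Hist2h4 that was listed at 0 is drawn at the lower edge.

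Across the whole set the mutant lines differed from WT somewhat more often than features in general, and mostly upwards. Longer 1-exon features that share no base with another were called more often still, in both lines. In DIDO3ΔE16, 185 of 1760 tested short features were called higher and 78 lower, which is 14.9% called, beside 12.3% over all 25293 features tested (8.17% higher and 4.14% lower). The 10242 longer 1-exon features that share no base with another had 16.1% called, so a share above that of all features was not particular to the short ones. At free gene ends the calls leaned upwards: 55 of 404 were called higher and 10 lower, with a median log2 fold change of 0.09. Gene ends with another gene in the 2 kb had 33 of 197 higher and 9 lower, and features inside a gene 91 of 1049 higher and 53 lower. With the flow cell family in the fit, free gene ends had 29 higher and 3 lower, and without DIDO3ΔE16 replicate 2 they had 34 higher and 8 lower.

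DIDO3ΔCT+HADIDO3 showed no such lean at free gene ends. There 44 of 387 were called higher and 34 lower than WT, with a median of -0.02. Over all 1750 tested short features 207 were called higher and 94 lower, 17.2% against 13.5% of all features (7.81% higher and 5.67% lower), with 20.2% called at free gene ends. The longer 1-exon features that share no base with another had 20.3% called. Inside genes 127 of 1065 were called higher and 46 lower, which is 16.2%. The test of the difference between the lines is their direct comparison, in which 73 of 408 free gene ends were called higher in DIDO3ΔE16 and 42 lower, a median of 0.10. Inside genes the order was the other way round, with 108 higher and 169 lower of 1072. Over all features 22.6% were called between the lines, 11.5% higher in DIDO3ΔE16 and 11.0% lower. The share was 27.1% for all short features and 31.1% for the longer 1-exon features. The 2 comparisons with WT share the WT libraries.

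**Figure D2:**
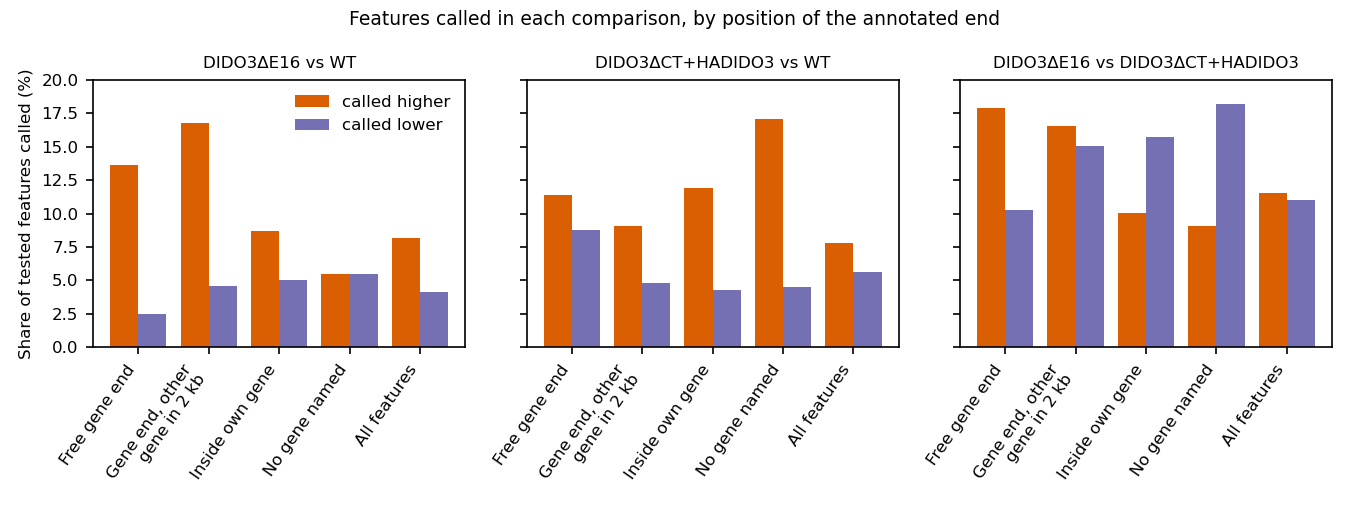
Share of tested features called higher (orange) and lower (violet) in each of the 3 comparisons, in percent, by the position of the annotated end, with all features of the tables on the right. At free gene ends 55 of 404 features were called higher and 10 lower in DIDO3ΔE16, whereas 44 of 387 were called higher and 34 lower in DIDO3ΔCT+HADIDO3.

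The clearest case of a shift between neighbouring ends was Mrps15, which encodes a protein of the small subunit of the mitochondrial ribosome. It had a free gene end among the short features (chr4:126055518-126057536, plus strand, 19 annotated bases) and a second, upstream feature that is not one of them (chr4:126051433-126054264). At the free gene end the libraries had 4.36, 4.31 and 3.61 TPM in WT, 25.5, 30.8 and 27.2 in DIDO3ΔE16 against 3.34, 3.25 and 4.09 in DIDO3ΔCT+HADIDO3. DIDO3ΔE16 was apart from both other groups, which overlapped: the log2 fold change was 2.67 (SE 0.11, adjusted p = 0.000437) from WT and 2.95 (SE 0.12, adjusted p = 0.000148) from DIDO3ΔCT+HADIDO3. The upstream feature moved the other way, from 37.9, 36.7 and 36.9 TPM in WT to 24.6, 23.3 and 22.4 in DIDO3ΔE16 (log2 fold change -0.73, SE 0.05, adjusted p = 0.0017), with 38.8, 42.0 and 47.6 in DIDO3ΔCT+HADIDO3. The downstream feature thus held 9.91% ± 0.872 (SD, n = 3) of the TPM of both in WT, 54.2% ± 3.13 in DIDO3ΔE16 against 7.67% ± 0.43 in DIDO3ΔCT+HADIDO3. An exact permutation test gave p = 0.1 for each pair of groups, the smallest that 3 against 3 libraries allow. Mrps15 was chosen on these same libraries, where DIDO3ΔE16 stood apart. The p-values that involve DIDO3ΔE16 were thus fixed in advance and add no support. The other 14 of 15 mitochondrial ribosomal protein features, such as Mrps9, Mrps16 and Mrps5, were not called in either comparison with WT.

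Of the 55 free gene ends called higher in DIDO3ΔE16, 6 had another feature of the same gene outside the set, and 5 of those were tested. In these 5, 2 moved the same way, 2 were not called and 1, that of Mrps15, was called lower. Zfp809, a zinc finger gene known for silencing of retroviral DNA, moved the same way at both ends, by 0.89 at the free gene end and 0.83 (SE 0.05, adjusted p = 0.00105) at its other feature. Zfp467, another zinc finger gene, had 0.101, 0.181 and 0.093 TPM at its free gene end in WT, 3.24, 3.21 and 2.29 in DIDO3ΔE16 against 0.267, 0.249 and 0.130 in DIDO3ΔCT+HADIDO3, the largest increase called at a free gene end (log2 fold change 3.69, SE 0.24, adjusted p = 0.00127). Its other feature had 1.12, 0.664 and 0.953 TPM in WT and 1.93, 1.48 and 1.53 in DIDO3ΔE16, a log2 difference of 0.75 that was not called (adjusted p = 0.086). The next gene on the opposite strand, Krba1, rose as well, by 1.15.

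At several other free gene ends only the DIDO3ΔE16 libraries were above 1 TPM. Slit1, which encodes a secreted axon guidance protein, had 0.789, 0.410 and 0.573 TPM in WT, 5.53, 6.11 and 5.71 in DIDO3ΔE16 against 0.453, 0.684 and 0.608 in DIDO3ΔCT+HADIDO3. The difference from WT was 3.07 on the log2 scale (SE 0.23, adjusted p = 0.00175), and the nearest feature of another gene, 9877 bases away, was not called. Spink4, a serine protease inhibitor of the gut, had 0.217, 0.504 and 0.124 TPM in WT, 2.34, 3.44 and 2.45 in DIDO3ΔE16 against 0.540 to 0.680 in DIDO3ΔCT+HADIDO3 (2.95, SE 0.42, adjusted p = 0.00915). Bag1, on the opposite strand 1002 bases from the Spink4 feature, was at 61.5 TPM in WT and 58.5 in DIDO3ΔE16 and was not called. The homeobox gene Lbx2 had 0.185, 0.0647 and 0.0597 TPM in WT, 1.70, 1.16 and 1.66 in DIDO3ΔE16 against at most 0.316 in DIDO3ΔCT+HADIDO3 (2.97, adjusted p = 0.00382). Its upstream neighbour on the same strand, Pcgf1, was called higher too, by 1.65. Myrfl had 0.025 to 0.315 TPM in WT, 1.67, 2.21 and 2.06 in DIDO3ΔE16 against 0.0804 to 0.306 in DIDO3ΔCT+HADIDO3 (3.16, adjusted p = 0.0105). Myrfl was not called with the flow cell family in the fit (adjusted p = 0.08). In all 4 genes DIDO3ΔE16 was apart from both other groups. WT and DIDO3ΔCT+HADIDO3 overlapped in Slit1, Lbx2 and Myrfl, and Spink4 lay slightly higher in DIDO3ΔCT+HADIDO3 without a call (0.95, adjusted p = 0.158).

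**Figure D3:**
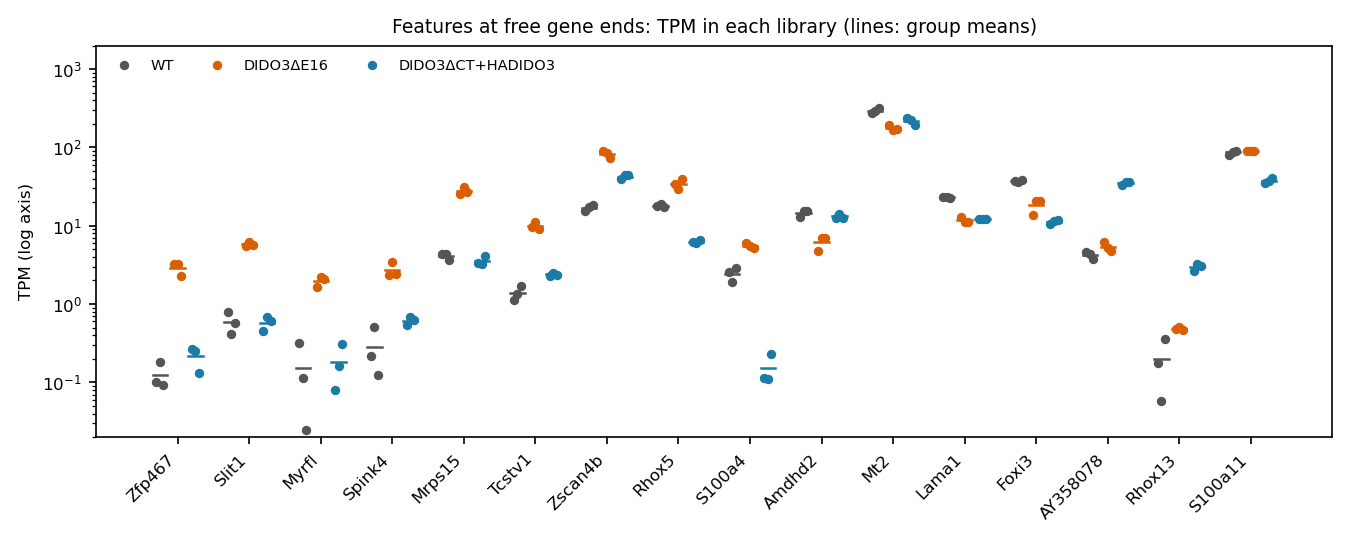
TPM on a log axis at 16 free gene ends, with 1 point per library and a line at the mean of each group of 3. Zfp467, Slit1, Myrfl, Spink4 and Mrps15 are high in DIDO3ΔE16 only, Lama1 and Foxi3 are lower in both mutant lines, and Rhox5 and S100a4 lie on opposite sides of WT in the 2 mutant lines.

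Genes of the two-cell stage, which a small share of ESC expresses at any time, made up a further block. All 7 two-cell features in the set were called higher in DIDO3ΔE16, with a median log2 fold change of 2.24, and 3 of 6 tested in DIDO3ΔCT+HADIDO3, with a median of 1.13. Over all features tested, 8.17% and 7.81% were called higher in these lines. The two-cell list was chosen with earlier results of these data known, so its counts are a description. Zscan4b, a member of the Zscan4 family that marks the two-cell-like state, had 15.2, 17.4 and 18.6 TPM in WT, 90.7, 85.3 and 74.0 in DIDO3ΔE16 against 39.5, 44.0 and 44.0 in DIDO3ΔCT+HADIDO3. The 3 groups were apart, with 2.22 (SE 0.12, adjusted p = 0.000786) and 1.22 (SE 0.10, adjusted p = 0.00177) from WT and 0.99 (adjusted p = 0.00128) between the mutant lines. In bulk RNA a larger number of such cells and more RNA per cell cannot be told apart. Zscan4f had 4.11 to 6.86 TPM in WT, 22.7 to 32.8 in DIDO3ΔE16 against 18.6 to 21.9 in DIDO3ΔCT+HADIDO3. The deubiquitinase gene copies Usp17lc and Usp17lb rose by 2.30 and 1.43 in DIDO3ΔE16, and Tdpoz2 by 1.21, with the Usp17lb call lost in 4 of 6 fits that left out 1 library (adjusted p = 0.0569 to 0.0925). Features of these families lie in near-identical copies, so reads may have been split among them. With the flow cell family in the fit 5 of 7 were called in DIDO3ΔE16 and 3 of 6 in DIDO3ΔCT+HADIDO3.

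The Tcstv cluster on chromosome 13 contributed 5 free gene ends to the DIDO3ΔE16 increases, of which Tcstv1 and Tcstv3 are also counted among the two-cell features above. Tcstv1, a two-cell-stage gene, had 1.14, 1.33 and 1.71 TPM in WT, 9.52, 11.1 and 9.06 in DIDO3ΔE16 against 2.29, 2.51 and 2.37 in DIDO3ΔCT+HADIDO3 (2.70, SE 0.19, adjusted p = 0.00148 from WT in DIDO3ΔE16). Tcstv3 rose by 2.77, BC147527 by 2.74, B020031M17Rik by 2.71 and D13Ertd608e by 2.91. In DIDO3ΔCT+HADIDO3 only B020031M17Rik (1.19) and D13Ertd608e (2.26) were called, the first not with the flow cell family in the fit (adjusted p = 0.096). On chromosome 10, Gm4301, Gm4302, Gm4307 and Gm4308 rose by 2.9 to 3.43 in DIDO3ΔE16 and were not called in DIDO3ΔCT+HADIDO3. These predicted genes have near-identical ends, so reads may have been split among them, and WT levels ranged from 0.128 to 0.813 TPM and DIDO3ΔE16 levels from 2.36 to 6.46. Gm4302 lost its call with the flow cell family in the fit (adjusted p = 0.105), and both Gm4301 and Gm4302 lost it without DIDO3ΔE16 replicate 2 (adjusted p = 0.0502 and 0.0513). Over all 90 predicted or clone-named features tested, 29 were called higher and 1 lower in DIDO3ΔE16, against 14 higher and 9 lower of 91 in DIDO3ΔCT+HADIDO3. Over all features tested the shares were 8.17% higher and 4.14% lower, then 7.81% and 5.67%. Of these predicted or clone-named features 18 were called higher and 1 lower in DIDO3ΔE16, and 5 higher and 5 lower in DIDO3ΔCT+HADIDO3, with the flow cell family in the fit. Leaving out 1 library gave 20 to 32 higher in DIDO3ΔE16 and 8 to 11 in DIDO3ΔCT+HADIDO3.

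Some copies on the sex chromosomes were also higher in DIDO3ΔE16 and were listed at 0 in DIDO3ΔCT+HADIDO3. Gm2098, on chromosome Y, had 0.226, 0.525 and 0.160 TPM in WT, 4.68, 3.69 and 3.67 in DIDO3ΔE16 and 0 in all DIDO3ΔCT+HADIDO3 libraries (3.39, SE 0.37, adjusted p = 0.0044). Other genes of chromosome Y, Kdm5d, Eif2s3y and Uty, were at 3.59 to 13.1 TPM in the WT and DIDO3ΔE16 libraries and listed at 0 in all 3 DIDO3ΔCT+HADIDO3 libraries, and Ddx3y was at most 0.0429 there. The absence of chromosome Y signal thus covered the whole DIDO3ΔCT+HADIDO3 group and was not particular to Gm2098. DXBay18 and Gm14685, near-identical neighbours on chromosome X that end in the same 30 bases, had 0.092 to 0.698 TPM in WT and 3.58 to 7.53 in DIDO3ΔE16 (3.74 and 3.77), neither of which was called with the flow cell family in the fit (adjusted p = 0.0791 and 0.054).

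At 2 well-measured free gene ends the mutant lines lay on opposite sides of WT. Rhox5, a homeobox gene of the reproductive Rhox cluster on the X chromosome, had 18, 18.8 and 17.1 TPM in WT, 34.1, 29.1 and 39.0 in DIDO3ΔE16 against 6.17, 5.98 and 6.62 in DIDO3ΔCT+HADIDO3. It rose by 0.85 (SE 0.12, adjusted p = 0.00865) in DIDO3ΔE16, a call lost with the flow cell family in the fit (0.79, adjusted p = 0.08), and fell by 1.60 (adjusted p = 0.000414) in DIDO3ΔCT+HADIDO3. S100a4, a calcium-binding protein gene typical of motile and mesenchymal cells, had 2.54, 1.93 and 2.86 TPM in WT, 5.95, 5.52 and 5.20 in DIDO3ΔE16 against 0.113, 0.111 and 0.229 in DIDO3ΔCT+HADIDO3, with log2 fold changes of 1.11 (adjusted p = 0.0128) and -3.42 (SE 0.26, adjusted p = 0.00147). The S100a4 call in DIDO3ΔE16 was lost without DIDO3ΔE16 replicate 2. The difference between the mutant lines was 4.53 for S100a4 and 2.44 for Rhox5. S100a4 is also expressed by fibroblasts, and its order over the groups was that of the fibroblast marker Col1a1. Col1a1 had means of 11.7 TPM in WT, 28.7 in DIDO3ΔE16 against 1.14 in DIDO3ΔCT+HADIDO3. Of 4 fibroblast markers tested in DIDO3ΔCT+HADIDO3, 3 were called lower than WT, Col1a1 among them, while Thy1 was called higher. The part of feeder cells in the S100a4 values was not tested. A non-coding locus, AC131692.1, had 8.94 to 10.2 TPM in WT, 14.5 to 16.9 in DIDO3ΔE16 against 5.38 to 5.88 in DIDO3ΔCT+HADIDO3 and was called in both (0.70 and -0.84), the first at the fold threshold, lost in 4 of 6 fits that left out 1 library and not made with the flow cell family in the fit (adjusted p = 0.0562). Elobl had 2.51, 3.87 and 2.34 TPM in WT and 10.5, 9.90 and 9.20 in DIDO3ΔE16 (1.70, adjusted p = 0.00631); 2210409E12Rik, which lies 8188 bases from it on the opposite strand, had 131 to 138 TPM in WT and 404 to 450 in DIDO3ΔE16.

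**Figure D4:**
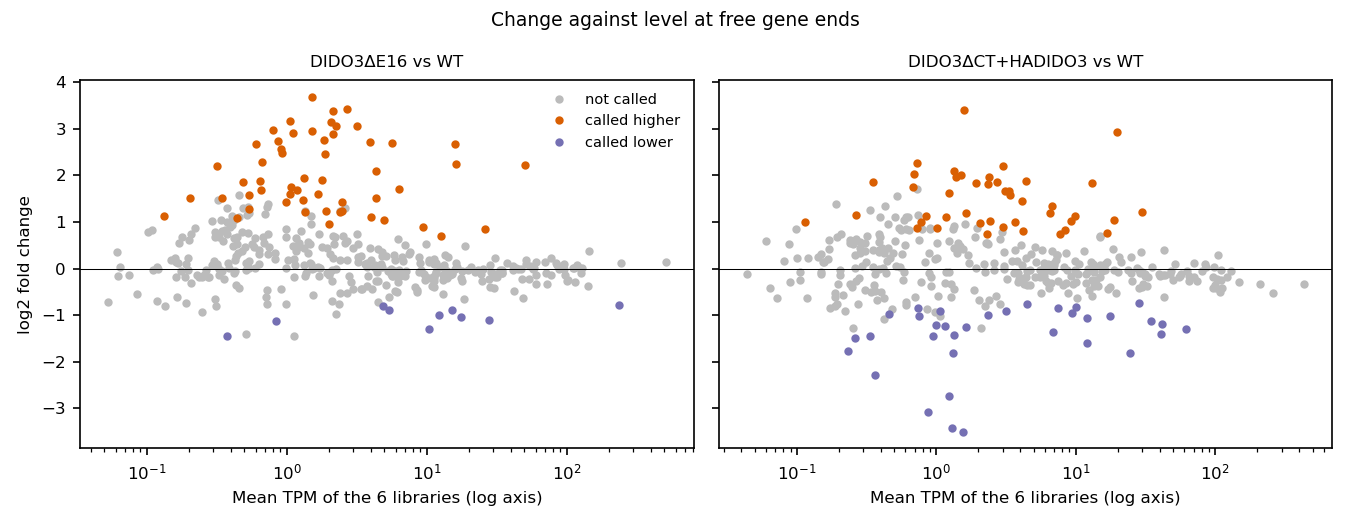
Log2 fold change from WT against the mean TPM of the 6 libraries (log axis) at free gene ends, with calls in orange (higher) and violet (lower) and uncalled features in grey. In DIDO3ΔE16 the 55 calls upwards outnumber the 10 downwards, while DIDO3ΔCT+HADIDO3 has 44 upwards and 34 downwards.

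The 10 free gene ends called lower in DIDO3ΔE16 included genes that were called lower in both lines. At Lama1, the gene of the laminin alpha 1 chain of basement membranes, the free gene end (chr17:67822450-67824645) had 23.3, 23.6 and 22.8 TPM in WT, 12.9, 11.2 and 11.2 in DIDO3ΔE16 against 12.2, 12.1 and 12.2 in DIDO3ΔCT+HADIDO3. It fell by 1.04 (adjusted p = 0.00175) and by 1.02 (adjusted p = 0.000505), and the mutant lines differed by -0.03 (SE 0.08). Foxi3, a forkhead factor of ectodermal development, had 37.8, 35.7 and 38.6 TPM in WT, 13.7, 20.6 and 20.9 in DIDO3ΔE16 against 10.6, 11.4 and 11.8 in DIDO3ΔCT+HADIDO3. It was called lower in both (-1.11, adjusted p = 0.0147, and -1.82, adjusted p = 0.000246), the first not with the flow cell family in the fit (adjusted p = 0.116) nor without WT replicate 4. Its mutant lines did not overlap and differed by 0.69 (SE 0.19, adjusted p = 0.0412), just under the fold threshold. Cyct, the testis form of cytochrome c, fell by 0.99 and 1.06. Its levels were 15.2 to 17.0 TPM in WT, 7.34 to 9.22 in DIDO3ΔE16 against 7.18 to 9.42 in DIDO3ΔCT+HADIDO3.

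Other decreases were called in DIDO3ΔE16 only. Amdhd2, an enzyme of amino sugar metabolism, had 13.1, 15.3 and 15.3 TPM in WT, 4.82, 6.88 and 6.97 in DIDO3ΔE16 against 12.7, 14.2 and 12.6 in DIDO3ΔCT+HADIDO3, and differed between the mutant lines by -1.06 (adjusted p = 0.00778). The metallothionein genes Mt2 and Mt3, which bind metal ions, fell by 0.79 and 1.13. Mt2 had 275, 288 and 323 TPM in WT, 192, 166 and 174 in DIDO3ΔE16 against 239, 227 and 195 in DIDO3ΔCT+HADIDO3, and the neighbouring feature of Mt1 was called lower as well, by 1.10. The recombination genes Mnd1 and Rad54b had log2 fold changes of -0.89 (adjusted p = 0.0349) and -0.81 (adjusted p = 0.0434). Amdhd2, Mt2 and Mt3 were not called with the flow cell family in the fit (adjusted p = 0.0616, 0.054 and 0.0816), nor were Mnd1 and Rad54b (adjusted p = 0.223 and 0.249), whose calls were also lost in 6 and 5 of the 6 fits that left out 1 library.

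In DIDO3ΔCT+HADIDO3 the 4 largest increases were in features inside genes or without one. The unnamed feature uc007avm.2 (chr1:43189639-43191758), with Fhl2 in its 2 kb, had 0.621, 0.737 and 0.070 TPM in WT, 1.05, 1.59 and 1.25 in DIDO3ΔE16 against 37.6, 36.0 and 32.3 in DIDO3ΔCT+HADIDO3 (6.15, SE 0.68, adjusted p = 0.00406). Another unnamed feature, uc008zeo.3 (chr5:115799555-115801676), had 8.13, 7.10 and 9.86 TPM in WT, 12.6, 10.5 and 8.77 in DIDO3ΔE16 against 152, 149 and 140 in DIDO3ΔCT+HADIDO3 (4.04, SE 0.14, adjusted p = 0.000253). Both were apart from the other groups, which overlapped for uc008zeo.3 but not for uc007avm.2. Nuf2, a kinetochore gene whose feature lies inside it, rose from 0.354 to 0.720 TPM in WT to 6.26 to 7.82 (3.49), and Stard13, a gene of a lipid-binding domain protein, from 0.177 to 0.789 to 4.97 to 6.02 (3.42).

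Among free gene ends called higher in DIDO3ΔCT+HADIDO3, AY358078 showed the largest TPM difference. It had 4.60, 4.40 and 3.71 TPM in WT, 6.16, 5.14 and 4.81 in DIDO3ΔE16 against 33.3, 36.6 and 35.8 in DIDO3ΔCT+HADIDO3, with 2.94 (SE 0.10, adjusted p = 0.00023) from WT and -2.68 (SE 0.11, adjusted p = 0.000146) between the mutant lines. Rhox13, of the same cluster as Rhox5, went the other way from it: 0.176, 0.0577 and 0.360 TPM in WT, 0.479, 0.505 and 0.461 in DIDO3ΔE16 against 2.64, 3.21 and 3.02 in DIDO3ΔCT+HADIDO3 (3.4, SE 0.43, adjusted p = 0.00563). Myl7, the atrial myosin light chain, Ptprv, Tlr2, which encodes a receptor for bacterial lipoproteins, and Pom121l2 rose by 1.97 to 2.20, from at most 1.40 TPM in WT to between 1.0 and 5.08. Uchl3, a ubiquitin hydrolase, rose by 1.05, from 11.0 to 12.4 TPM in WT to 24.7 to 27.5, and its other feature rose by 1.26. In Cpn1, too, both features were called higher.

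The decreases of DIDO3ΔCT+HADIDO3 held several abundant genes. S100a11, another calcium-binding S100 gene, had 81.0, 86.9 and 90.6 TPM in WT, 89.3, 90.7 and 90.3 in DIDO3ΔE16 against 35.6, 37.2 and 40.4 in DIDO3ΔCT+HADIDO3 (-1.29, SE 0.07, adjusted p = 0.000607). WT and DIDO3ΔE16 overlapped. Rplp1, an acidic protein of the ribosomal stalk, had 56.9, 55 and 58.1 TPM in WT, 69.0, 57.3 and 54.1 in DIDO3ΔE16 against 27, 28.0 and 24.3 in DIDO3ΔCT+HADIDO3 (-1.19, SE 0.08, adjusted p = 0.000939). The free gene end of Haus1, a subunit of the augmin complex of the spindle, had 43.9, 48.0 and 48.1 TPM in WT, 50.4, 47.6 and 46.7 in DIDO3ΔE16 against 20.5, 23.2 and 25.4 in DIDO3ΔCT+HADIDO3 (-1.12, SE 0.09, adjusted p = 0.00169), while its other feature had 46.5 to 48.5 and 52.3 to 53.8 TPM in WT and DIDO3ΔCT+HADIDO3 and was not called (0.06). Ifitm3, an interferon-induced membrane protein gene, fell by 1.40. Fibroblasts express S100a11, Ifitm3 and Serpinf1 (below) as well. The collagen markers were lower in DIDO3ΔCT+HADIDO3 as given above, while the marker Thy1 was called higher there (1.41). In DIDO3ΔE16, where the collagen markers were called higher, S100a11 overlapped with WT. The part of feeder cells in these values was not tested. The largest decreases by fold were at lower levels: Fthl17f, a ferritin-like gene of the X chromosome, fell by 3.5, from 2.87 to 2.96 TPM to 0.127 to 0.301, and 1700019A02Rik by 3.07. Serpinf1 and Fgfr2, whose features lie inside the gene, each fell by 2.73. For Serpinf1, which encodes a secreted antiangiogenic protein, WT had 12.9 to 15 TPM and DIDO3ΔCT+HADIDO3 1.84 to 2.75.

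Inside genes and where another gene lies in the 2 kb, the signal may belong to an exon, an intron or the other gene. The largest DIDO3ΔE16 increase of the whole set was of this kind: Tex52, with Gm15862 and Gm44596 in its 2 kb, had 0.0637, 0.367 and 0.120 TPM in WT, 9.83, 10.8 and 9.68 in DIDO3ΔE16 against at most 0.137 in DIDO3ΔCT+HADIDO3 (5.26, SE 0.42, adjusted p = 0.00203). Rsph10b, a radial spoke protein gene of cilia, had 0.0097 to 0.292 TPM in WT and 3.47 to 3.83 in DIDO3ΔE16 (4.29). Zan, which encodes the sperm protein zonadhesin and has Ephb4 in its 2 kb, rose by 3.21, from 0.254 to 0.381 TPM to 3.68 to 4.22. Both features inside the phospholipase C gene Plch2 rose, by 3.44 and 3.22, and were not called in DIDO3ΔCT+HADIDO3.

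The largest DIDO3ΔE16 decreases with a mean of at least 1 TPM and groups apart, of which 9 are given here, all lay inside genes. Cadm1, a cell adhesion gene, had 4.89, 6.14 and 6.10 TPM in WT, 0.168, 0.845 and 0.871 in DIDO3ΔE16 against 13.4, 15 and 14.3 in DIDO3ΔCT+HADIDO3, a log2 fold change of -3.26 (SE 0.57, adjusted p = 0.0161) and 1.22 (adjusted p = 0.00307). The first was lost with the flow cell family in the fit (adjusted p = 0.104), without WT 2-3 and without WT replicate 4. Wdfy1, an endosomal protein gene, had 17.0, 20.3 and 21.2 TPM in WT, 2.72, 4.02 and 3.41 in DIDO3ΔE16 against 31.1, 31.6 and 32.1 in DIDO3ΔCT+HADIDO3 (-2.56, SE 0.18, adjusted p = 0.00149). Ccdc136 fell from 9.73 to 11.3 TPM to 1.75 to 2.28 (-2.39). The features in Tenm3, Mvb12b, Evi5l, Myo5c, Fam178b and a second, internal feature of Lama1 had log2 fold changes between -2.42 and -1.61, from WT levels of 0.731 to 6.31 TPM. With the flow cell family in the fit Tenm3, Evi5l, Myo5c, Fam178b and this Lama1 feature were not called (adjusted p = 0.0896, 0.14, 0.0598, 0.0606 and 0.0854). The Evi5l and internal Lama1 calls were also lost in 3 and 4 of the 6 fits that left out 1 library. In these 9 features DIDO3ΔE16 lay below DIDO3ΔCT+HADIDO3 as well, with log2 differences of -2.36 to -4.84, a description since the same DIDO3ΔE16 libraries chose them.

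A short unnamed feature inside Dido1 itself, on its strand (uc008ojx.2, chr2:180686711-180688819), was higher in both mutant lines. It had 42.0, 43.6 and 34.9 TPM in WT, 163, 153 and 152 in DIDO3ΔE16 against 163, 141 and 138 in DIDO3ΔCT+HADIDO3. The log2 fold changes were 1.90 (SE 0.09, adjusted p = 0.000554) and 1.78 (SE 0.12, adjusted p = 0.00102), and the mutant lines differed by 0.10 (SE 0.09).

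None of the 10 most abundant short features was called against WT in either line. In WT the highest were inside Eef2, the translation elongation factor 2 gene, with 4360, 4870 and 5060 TPM, and inside Gm15459, with 3840, 4140 and 4040. Zfp988, Slc29a1, Dppa5a, Mkrn1, Cad, Jmjd1c, Fubp1 and an unnamed feature inside Rest followed. At free gene ends the highest were Dppa5a, a pluripotency gene with 430, 467 and 518 TPM in WT, and Mt2, followed by Tuba1b, a tubulin gene, at 194 to 246 TPM, and Mif, a cytokine gene, at 138 to 172. The short features together held 4.72% to 5.17% of all TPM per library, free gene ends 0.55% to 0.65%, and 653 features were at 0 in all 9 libraries.

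Housekeeping groups with many short genes gave few calls, beside 12.3% of all features called in DIDO3ΔE16 and 13.5% in DIDO3ΔCT+HADIDO3. Of 26 cytosolic ribosomal protein features 0 were called in DIDO3ΔE16 by limma (2 had an unadjusted p under 0.05), with a median of 0.07, and 1 was called lower in DIDO3ΔCT+HADIDO3, the Rplp1 feature above. Rpl39, at 114 to 147 TPM in every library, and Rps4x, at 58.5 to 85.4, were not called in any comparison. Of 29 features of oxidative phosphorylation subunits, 0 were called by limma in DIDO3ΔE16 (1 had an unadjusted p under 0.05; median -0.05) and 1 of 28 in DIDO3ΔCT+HADIDO3, Cox8c, a testis subunit of cytochrome c oxidase, at 0.968 to 1.24 TPM against 0.311 to 0.631 in WT (1.01, adjusted p = 0.0482; 0.21 with the flow cell family in the fit, and lost in 5 of 6 fits that left out 1 library). Ndufs6 had 239 to 300 TPM in WT and 264 to 350 in DIDO3ΔE16. Proteasome features such as Psma5 and spliceosomal features such as Snrpe were not called in either comparison with WT. Of 5 RNA polymerase subunit features Polr3g was called lower in DIDO3ΔE16 (-1.24, adjusted p = 0.0235; 0.171 with the flow cell family in the fit, and lost in 4 of 6 fits that left out 1 library), from 1.99 to 2.75 TPM to 0.797 to 1.35.

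Receptor and defence gene families, which are numerous in the set, were mostly silent. Of 171 olfactory receptor features 116 were at 0 in all 9 libraries and 7 could be tested in DIDO3ΔE16, where Olfr1270 rose from 0.509 to 0.986 TPM to 2.23 to 2.85 (1.56, adjusted p = 0.0143; 0.0526 without DIDO3ΔE16 replicate 3). Olfr1270 also rose in DIDO3ΔCT+HADIDO3 (1.90), and Olfr543 fell there by 2.27, a call lost with the flow cell family in the fit (adjusted p = 0.148) and in 4 of 6 fits that left out 1 library. Of 42 defensin features 20 were at 0 in all libraries and none reached a mean of 1 TPM. Of 30 zinc finger features 9 of 28 were called higher and 1 lower in DIDO3ΔE16, and 6 higher and 2 lower in DIDO3ΔCT+HADIDO3, beside 8.17% higher and 4.14% lower, then 7.81% and 5.67%, over all features. These counts were 6 higher and 1 lower, then 6 and 0, with the flow cell family in the fit. Zfp990 had 135 to 180 TPM in WT, 297 to 314 in DIDO3ΔE16 against 544 to 643 in DIDO3ΔCT+HADIDO3 (0.88, with an adjusted p of 0.0603 when the flow cell family was in the fit, and 1.77), and Zfp640 93.2 to 110, 212 to 227 and 254 to 279 (1.01 and 1.24). Both lie in clusters of similar genes, where reads may have been split.

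Genes of the machinery that forms 3′ ends were examined as a list of 31 genes, each by its most abundant feature of any length. Of 28 tested against WT, 1 was called higher and 0 lower in DIDO3ΔE16, with a median of -0.08, and 0 in DIDO3ΔCT+HADIDO3 by limma, with a median of -0.28 and 17 at an unadjusted p under 0.05. The called gene was Wdr33, a subunit of the polyadenylation factor that reads the hexamer, with 40.1 TPM in WT, 77.8 in DIDO3ΔE16 against 29.5 in DIDO3ΔCT+HADIDO3 on average (0.89, adjusted p = 0.00114). This level covers its 3′UTR and the added 2 kb together and is not that of the protein. The study reported a longer Wdr33 3′UTR in DIDO3ΔE16 cells by RT-PCR and saw no change in WDR33 protein. Between the mutant lines 4 were called higher in DIDO3ΔE16 and 1 lower, of 29, beside 11.5% higher and 11.0% lower over all features. Against WT the shares over all features were 8.17% higher and 4.14% lower in DIDO3ΔE16. They were 7.81% and 5.67% in DIDO3ΔCT+HADIDO3. Within the short features, Pcf11, a termination factor, had 175 to 186 TPM in WT, 176 to 202 in DIDO3ΔE16 against 128 to 142 in DIDO3ΔCT+HADIDO3, and Xrn2, the nuclease that degrades RNA downstream of the cleavage site, 63.7 to 77.2, 69.2 to 72.8 and 57.8 to 66.3. Neither was called against WT. Of the 6 short features of this list, all inside their gene, Scaf4 was the called one. Scaf4, which binds RNA polymerase II and restrains early polyadenylation, had 19.3, 18.1 and 14.5 TPM in WT, 6.02, 7.09 and 5.03 in DIDO3ΔE16 against 14.2, 16.1 and 18.1 in DIDO3ΔCT+HADIDO3, with log2 differences of -1.57 (adjusted p = 0.00445) from WT and -1.39 (adjusted p = 0.00259) between the mutant lines. The most abundant feature of Scaf4, uc007zwg.1, went the other way, with means of 26.2 TPM in WT, 35.3 in DIDO3ΔE16 against 21.7 in DIDO3ΔCT+HADIDO3. Its log2 difference was 0.37 from WT, not called, and 0.72 between the mutant lines (adjusted p = 0.000524), called higher in DIDO3ΔE16. The helicase gene Dhx9 had 126 to 145 TPM in WT, 152 to 162 in DIDO3ΔE16 against 93.2 to 103 in DIDO3ΔCT+HADIDO3 and was not called either. Its log2 difference from WT was -0.56 in DIDO3ΔCT+HADIDO3 (limma, adjusted p = 0.00601). Between the mutant lines it was 0.70 (adjusted p = 0.00106), just under the fold threshold before rounding.

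The distance from the free gene ends to neighbouring genes was set beside their calls, with no test. Of the 55 called higher in DIDO3ΔE16, 17 had a feature of another gene within 5 kb (30.9%), beside 28.0% of the 339 not called. For 17 of the 55 the nearest feature of another gene was called higher as well, beside 8.17% of all features tested. Several of these pairs were of 1 gene family, such as Gm4301 with Gm4302, Tcstv3 with BC147527 and Zscan4b with Zscan4a. Among the 10 called lower, 1 had a feature of another gene within 5 kb. The nearest one was called lower for 4, metallothionein pairs among them, beside 4.14% of all features. In DIDO3ΔCT+HADIDO3 the nearest feature was called the same way for 14 of 44 higher and 3 of 34 lower free gene ends. Over all features 7.81% were called higher there and 5.67% lower. Calls of the neighbours of uncalled ends were not counted.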

How the data were processed

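The authors aligned paired-end reads to mouse build mm10 with BWA 0.7.15, which is not splice-aware, removed duplicates, and ran StringTie 1.3.3 on an annotation of 3′UTRs extended by 2 kb. They deposited TPM per feature, with the mean coverage per base in the text of the StringTie tables. Those TPM values were used as deposited. The reads are described as stranded, but the StringTie setting names no strand, so RNA of either strand may have been counted. Their pairwise TPM matrices differed from the tables by at most 0.0005 TPM.

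Features were matched to GENCODE M21 (GRCm38) and sequences were read from its transcripts. Libraries were scaled by a mean of log2 ratios trimmed by 30% at each end, and features with TPM above 0 in every library of a comparison were fitted with limma 3.58.1 (R 4.3.3, trend and robust, 2-sided) on log2(TPM + 0.1), only the 2 groups compared entering; fold changes on this scale understate those of low features. Calls needed a log2 fold change of 0.7 and a Benjamini-Hochberg adjusted p under 0.05 over all features, the thresholds of the study. TPM is no count, so no count model was used. On simulated data made from 25293 features for the comparison of DIDO3ΔE16 with WT, 34.2% of features changed by 1 on the log2 scale were called and 58.6% of those changed by 2. Each simulated set had 200 changed features, far fewer than the 3112 called in the data. The adjusted p depends on that number, so these shares do not give the sensitivity of the real fit.

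Replicates correlated at 0.979 to 0.987 over 1692 short features, libraries of different groups at 0.913 to 0.953. Named were the 10 largest increases and decreases in DIDO3ΔE16 and the 5 largest in DIDO3ΔCT+HADIDO3 with a mean of at least 1 TPM and no overlap between groups, the 10 highest in WT, up to 4 per gene class and up to 5 with opposite calls; 1 of the decreases is not reported here. The free gene ends, histone features, list members that were called, Scaf4, other features and neighbours of the same genes and the Dido1 feature were added after values were seen. The short features and gene lists were chosen with earlier results of these data known. Alternatives changed the pseudocount, filter, scaling, libraries, covariates, length limit and distance to neighbours. Numbers were computed with Python 3.11.15, numpy 2.4.6 and pandas 2.3.3. Features were not separated into the annotated part and the 2 kb.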

Additional observations from a re-analysis of the deposited data

Results flagged for a closer look

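In 5 short features, chosen among those called in opposite directions in the comparisons with WT, the log2 differences between the mutant lines were large. That choice, on the same libraries, fixes that the lines differ, so these differences are given as a description with no test. 2210409E12Rik, a gene end with Coil in its 2 kb, had 133, 131 and 138 TPM in WT, 450, 416 and 404 in DIDO3ΔE16 against 38.7, 38.4 and 35.9 in DIDO3ΔCT+HADIDO3, and the difference between the mutant lines was 3.51 on the log2 scale. Yjefn3, a gene end with Cilp2 in its 2 kb, had 2.83, 3.46 and 3.45 TPM in WT, 13.8, 16.5 and 18 in DIDO3ΔE16 against 0.715, 1.29 and 0.695 in DIDO3ΔCT+HADIDO3, a difference of 4.07. BC061212, inside its gene, had 1.11 to 1.81, 5.22 to 6.52 and 0.203 to 0.459 TPM in the same order, a difference of 3.74. Lvrn, an aminopeptidase gene whose feature is internal, had 0.879 to 1.23, 5.49 to 6.30 and 0.216 to 0.454 TPM, also a difference of 3.74. Tenm3, which encodes a cell adhesion protein of neurons, differed the other way: its internal feature had 1.54 to 2.59 TPM in WT, 0.147 to 0.377 in DIDO3ΔE16 against 9.89 to 11.6 in DIDO3ΔCT+HADIDO3, a difference of -4.84. With the flow cell family in the fit the call against WT was lost for Yjefn3, BC061212 and Lvrn in DIDO3ΔCT+HADIDO3 (adjusted p = 0.0588, 0.0918 and 0.0794) and for Tenm3 in DIDO3ΔE16 (adjusted p = 0.0896). The Lvrn call in DIDO3ΔCT+HADIDO3 was also lost without WT replicate 1 and without WT 2-3 (adjusted p = 0.061 and 0.0626).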

How the results depend on the processing

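With the flow cell family as a covariate, 139 short features were called in DIDO3ΔE16 in place of 263 and 196 in DIDO3ΔCT+HADIDO3 in place of 301, and 32 free gene ends in DIDO3ΔE16 in place of 65; WT 2-3 is then the only WT library that informs the comparison. With a length limit of 2100 bases 154, 160 and 251 short features were called in the 3 comparisons (DIDO3ΔE16 and DIDO3ΔCT+HADIDO3 against WT, then against each other) and 26, 21 and 34 free gene ends; with 2500 bases 530, 615 and 978 short features were called, since fewer or more features were tested. Without features that have another within 5 kb, 192 short features and 51 free gene ends were called in DIDO3ΔCT+HADIDO3, and 302 and 69 between the mutant lines. Gene ends matched within 0 bases, a choice made after the data were seen, gave 45 and 72 calls in these comparisons. Leaving out each library gave 177 to 218, 220 to 261 and 410 to 438 short features and 42 to 64, 60 to 71 and 92 to 100 free gene ends; 42 was reached without DIDO3ΔE16 replicate 2. Of the alternatives for single named features, 8067 in all kept the direction and the side of the threshold, 581 lost the call, 58 gained one and 0 changed sign.

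Same-numbered replicates did not deviate together (correlations of -0.06 to 0.03 over features), so the numbers are not taken as pairs. With the replicate number as a block, limma called 0 short features against WT in either line under both numberings of WT 2-3, where few residual degrees of freedom remain, although 316 to 393 had an unadjusted p under 0.05. Free gene ends had 0 calls as well, with 69 to 90 at an unadjusted p under 0.05. Between the mutant lines 366 short features were called with the block and 485 without it. Levels under 1 TPM rest on at most 908 to 1620 aligned bases, depending on the library, and limit what can be said of single low features. Each feature measures the annotated part and the 2 kb together, and sequence of the 2 kb was not used here.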

Other observations

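The set held few pluripotency and germline genes. Of 4 pluripotency features, 1 that lies inside Tfcp2l1, a gene of a transcription factor of naive ESC, was called higher in both lines, from 0.643 to 1.12 TPM in WT to 1.71 to 2.43 in DIDO3ΔE16 and 2.36 to 2.8 in DIDO3ΔCT+HADIDO3 (1.09 and 1.41), neither with the flow cell family in the fit, and the first lost in 5 of 6 fits that left out 1 library. The most abundant feature of Tfcp2l1, with means of 741 TPM in WT, 1020 in DIDO3ΔE16 against 1000 in DIDO3ΔCT+HADIDO3, was not called (0.39 and 0.34). Klf5, Utf1 and Dppa5a were not called. Mael, a gene of transposon silencing in germ cells, rose in DIDO3ΔCT+HADIDO3 by 0.99, from 7.41 to 7.95 TPM to 15.3 to 17.4, and had 7.59 to 9.25 TPM in DIDO3ΔE16.

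Hydin, a gene of motile cilia, was called higher in DIDO3ΔE16 at its free gene end and at its other feature, by 1.89 and 2.51. Slc9b1, a sodium/proton exchanger gene, rose by 2.21 at its free gene end while its other feature, at 17.7 to 22.2 TPM in WT and 12.8 to 18.6 in DIDO3ΔE16, was not called.

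The length limit did not mark a step in level. The 139 features that ended at the limit or up to 10 bases below it had a median of 1.32 TPM where above 0, and the 127 one-exon features just above it had 1.43.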
